A study of Homo sapiens with 12 samples.

Results

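Genes of fatty acid oxidation, together with the PPAR nuclear receptors and PGC-1 coactivators that control them, were examined in 2 prostate cancer cell lines given dexamethasone or vehicle. The members were a list of 34 named genes, chosen by pathway membership with earlier results of these data known. A named row was present for 33 of them among 17687 named genes, each with 1 row, and RXRA was not analysed here. The lines are LNCaPabl-Abi and LNCaPabl-Enza, described in the labels as epithelial prostate cancer cells, and the growth protocol names LNCaP, an established line from a prostate cancer metastasis, in RPMI medium with serum. No label says what the endings Abi and Enza mean. Each line was given DMSO, the vehicle, or 100 nM dexamethasone, a synthetic glucocorticoid, for 24 h. This gives 4 groups of 3 arrays, Abi_Ctrl, Abi_Dex, Enza_Ctrl and Enza_Dex. No parental line was among the samples analysed, so the data compare these 2 lines with each other only.

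Long-chain fatty acids are burned in mitochondria. They are first joined to coenzyme A by acyl-CoA synthetases such as ACSL1, and then carried through the mitochondrial membranes as carnitine esters by CPT1A, the carrier SLC25A20 and CPT2. Inside, acyl-CoA dehydrogenases, hydratases, hydroxyacyl-CoA dehydrogenases and thiolases shorten the chain in repeated rounds, and electrons leave through the flavoproteins ETFA and ETFB and the oxidoreductase ETFDH. Peroxisomes carry out a parallel shortening of very long and branched chains, a route for which prostate cancer is known through the enzyme AMACR. PPARA, PPARD and PPARG are receptors that sense fatty acids and switch on many of these genes, and PGC-1 alpha, encoded by PPARGC1A, and PGC-1 beta, encoded by PPARGC1B, are coactivators that raise the activity of PPARs and of the estrogen-related receptor ESRRA. In liver and muscle, glucocorticoids are known inducers of PDK4, which restrains glucose oxidation, and of ANGPTL4, which inhibits lipoprotein lipase.

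The arrays gave 1 deposited log2 value per gene, and differences and their standard errors (SE) below are on that log2 scale. Enza_Ctrl replicate 2, called the doubtful array below, stood apart. Its median Pearson correlation with the other arrays over all named genes was 0.855, against 0.986 to 0.990 for the remaining 11. It was the lowest of the 12 arrays for 13 members and the highest for 6, which puts 19 of 33 members outside the range of the other 11 arrays, against 75.8% of all named genes. Its 23 background control rows averaged 5.50, against 4.50 to 4.60 elsewhere. Counts of called members are therefore given with 12 arrays and with the 11 that leave this array out. It belongs to 2 of the comparisons below, that of the lines with DMSO and the response in LNCaPabl-Enza, and to averages and differences built on them. There, values of single genes are given with 11 arrays unless 12 are named, and the value with 12 follows where the sign turned. The DMSO line difference had opposite signs with 12 and with 11 arrays for 11 of 33 members and 33.4% of all named genes, and the response in LNCaPabl-Enza for 8 members and 37.8%. In the line comparison with dexamethasone and the response in LNCaPabl-Abi, which do not hold this array, a difference is the same with either set and its SE is given with 11. As a check of the treatment, SGK1, a glucocorticoid target, went from 6.18 ± 0.35 to 13.57 ± 0.27 (SD, n = 3) in LNCaPabl-Abi. In LNCaPabl-Enza it went from 6.40 ± 0.43 to 10.95 ± 1.95 (SD, n = 3). In the same order, TSC22D3 went from 8.91 ± 1.04 to 10.42 ± 0.85 and from 9.13 ± 0.43 to 9.68 ± 0.30 (SD, n = 3). The receptor gene NR3C1 went from 11.31 ± 0.18 to 9.86 ± 0.38 and from 8.11 ± 2.01 to 7.38 ± 1.44 (SD, n = 3). KLK3 went from 6.86 ± 0.20 to 8.62 ± 1.10 and from 7.50 ± 1.17 to 7.32 ± 0.66 (SD, n = 3). Without the doubtful array, KLK3 averaged 6.83 in Enza_Ctrl. The 6 luminal prostate markers analysed, of 8 listed, had mean levels between 11.75 and 13.04 on the 11 arrays. Among them KLK3 ranged from 6.63 to 9.88, reaching into the range of the background rows. In LNCaPabl-Abi the mean was 11.75 to 12.17 with DMSO and 12.63 to 13.04 with dexamethasone. In LNCaPabl-Enza it was 12.11 to 12.45 and 12.46 to 12.65. The part of these shifts in the results below was not tested. The mean levels were 4.62 to 5.21 for 5 of 6 fibroblast markers, 4.49 to 5.22 for 5 of 6 immune markers, 3.71 to 4.05 for 5 endothelial markers and 3.14 to 3.61 for 5 adipocyte markers, all within the range of the background control rows on these 11 arrays, 2.42 to 8.21. The fibroblast marker COL1A2, at 7.42 to 8.63 on these arrays, reached above that range.

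**Figure D1:**
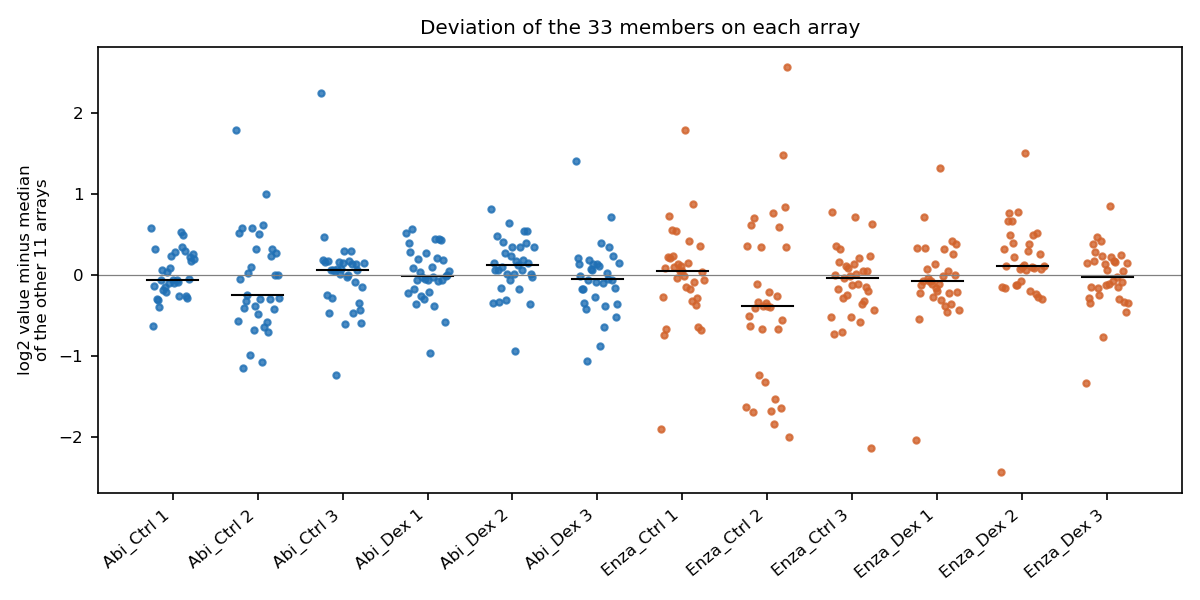
Value of each of the 33 members on an array minus the median of the other 11 arrays (y axis, deposited log2 units), by array (x axis), with 1 point per member and a bar at the median. The points of Enza_Ctrl replicate 2 spread widest, with a median absolute deviation of 0.63, where the other 11 arrays have 0.17 to 0.42.

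The first comparison asked how the 2 lines differ without steroid. PPARGC1A was lower and ACAA2, a thiolase of the mitochondrial spiral, was higher in LNCaPabl-Enza than in LNCaPabl-Abi. Neither passed the test with 12 arrays, and both did without Enza_Ctrl replicate 2. PPARGC1A also passed when Enza_Ctrl replicate 3 was left out instead. By limma with Benjamini-Hochberg adjustment over all named genes, 0 of 33 members were called at an adjusted p under 0.05 with 12 arrays, where 0.266% of all named genes were called. With 11 arrays, 1 member was higher and 1 was lower, against 1.29% of all named genes called. At an unadjusted p under 0.05, limma counted 6 members with 12 arrays (11.3% of all named genes) and 7 with 11 (11.1%). The second comparison set the lines against each other with dexamethasone, on 6 arrays that the first did not use. It again called 0 members with 12 arrays (0.277% of all named genes) and PPARGC1A and ACAA2, in the same directions, with 11 arrays (2.28% of all named genes). At an unadjusted p under 0.05 it counted 4 members with 12 arrays (4.14%) and 8 with 11 (11.5%). Enza_Ctrl replicate 2 is not among the arrays of the second comparison and entered it only through the pooled estimate of the spread. In these bulk RNA samples, fewer cells that express a gene and less of its RNA per cell cannot be told apart.

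PPARGC1A had the largest line difference of the members under both treatments. PGC-1 alpha docks on PPARs and on ESRRA to raise transcription of mitochondrial and fatty acid oxidation genes. Its start-site regions are shown because it was the regulator called in the line comparisons, and because the glucocorticoid element searched for in the promoters of the members was found in its upstream window. RefSeq's GRCh38.p14 table gives 2 windows for PPARGC1A on the minus strand of chromosome 4, and the 250 bases before each start site are printed 5′ to 3′ in the direction of transcription. The window at chr4:24472906-24473155 holds the match, in capitals, and the window at chr4:23881102-23881351 holds none.
PPARGC1A, upstream start: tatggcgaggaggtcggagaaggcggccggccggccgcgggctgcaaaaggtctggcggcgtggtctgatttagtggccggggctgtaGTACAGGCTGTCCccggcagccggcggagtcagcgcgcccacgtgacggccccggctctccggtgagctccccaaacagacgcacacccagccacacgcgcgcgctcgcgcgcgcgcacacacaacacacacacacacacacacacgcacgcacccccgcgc
PPARGC1A, downstream start: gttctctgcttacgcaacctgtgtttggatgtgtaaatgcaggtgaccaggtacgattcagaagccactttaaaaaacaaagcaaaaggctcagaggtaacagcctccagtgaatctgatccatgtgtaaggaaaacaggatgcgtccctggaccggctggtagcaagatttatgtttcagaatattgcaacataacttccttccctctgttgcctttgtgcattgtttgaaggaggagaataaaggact

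The element was searched as the letters GNACA and TGTNC, 3 bases apart, on both strands. Its match in PPARGC1A, GTACAGGCTGTCC, covers bases 89 to 101 of the window and ends 150 bases before the start site. As the pattern reads alike on both strands, the match is found at the same place on either. Of the 33 members, 30 had RefSeq windows, 54 windows of 300 bases (250 before and 50 after the start) in all, and ETFDH, ACAA1 and EHHADH are named only. PPARGC1A was the single member with this element, which occurs in 0.39% of all 35116 windows and in 0.48% of all genes of the table. The direct repeat bound by PPARs (AGGTCA followed, after 1 base, by AGGTCA) was in 0 of the 54 windows and in 0.0228% of all windows. The estrogen-related receptor element TCAAGGTCA was in 0 of the 54 and in 0.353% of all windows. These are matches of letters in short windows only.

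PPARGC1A levels in Abi_Ctrl were 7.71, 8.92 and 9.39 for replicates 1, 2 and 3. In Enza_Ctrl they were 5.76, 6.03 and 7.13. All 3 Enza_Ctrl arrays were below all 3 Abi_Ctrl arrays, the doubtful array (6.03) included. With dexamethasone, Abi_Dex gave 7.65, 7.95 and 8.55. Enza_Dex gave 5.61, 5.22 and 6.32. The groups were again apart, so the lowest LNCaPabl-Abi array of either treatment (7.65) exceeded the highest LNCaPabl-Enza array (7.13). The line difference with DMSO was -2.37 ± 0.49 (SE) with 12 arrays (limma adjusted p = 0.0978) and -2.23 ± 0.47 with 11 (adjusted p = 0.0306). With dexamethasone it was -2.33 ± 0.49 with 12 arrays (adjusted p = 0.112) and -2.33 ± 0.42 with 11 (adjusted p = 0.00693). The LNCaPabl-Enza values lay inside the range of the background control rows, with 8 of those 23 rows above the LNCaPabl-Enza mean and 0 above the LNCaPabl-Abi mean on the 11 arrays, so no fold is given for PPARGC1A. The DMSO call with 11 arrays was lost when Abi_Ctrl replicate 2 or 3 or Enza_Ctrl replicate 1 was also left out, with adjusted p-values up to 0.412. The dexamethasone call was lost without Enza_Dex replicate 2 (adjusted p = 0.0522).

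ACAA2 moved the other way between the lines. It cleaves chains of medium length to release acetyl-CoA, the final reaction of a round. Its RefSeq window, shown because ACAA2 was the enzyme called in both line comparisons, lies on the minus strand at chr18:49813534-49813783 (GRCh38.p14, 250 bases before the start site) and held none of the 3 elements searched.
ACAA2: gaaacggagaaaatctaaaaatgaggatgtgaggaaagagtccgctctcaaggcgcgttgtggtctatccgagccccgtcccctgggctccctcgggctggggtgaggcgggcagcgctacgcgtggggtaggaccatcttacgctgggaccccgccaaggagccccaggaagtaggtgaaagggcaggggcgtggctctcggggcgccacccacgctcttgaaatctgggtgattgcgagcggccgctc

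ACAA2 levels were 8.12, 7.83 and 7.51 in Abi_Ctrl and 9.62, 7.72 and 8.55 in Enza_Ctrl. The doubtful array, at 7.72, lay inside the Abi_Ctrl range, while the other Enza_Ctrl arrays lay above it. Abi_Dex gave 7.16, 7.18 and 7.24, the tightest of the 4 groups (SD 0.04). Enza_Dex gave 9.16, 9.33 and 8.68, all above every LNCaPabl-Abi array. With DMSO the line difference was 0.81 ± 0.40 (SE) with 12 arrays (limma adjusted p = 0.432) and 1.27 ± 0.29 with 11 (adjusted p = 0.0466). This last call was narrow, since it was kept in 3 of 11 fits that left out a further array. With dexamethasone the difference was 1.86 ± 0.40 with 12 arrays (adjusted p = 0.125) and 1.86 ± 0.26 with 11 (adjusted p = 0.000988), and that call was kept in all 11 such fits. The LNCaPabl-Abi values of ACAA2 were all below 8.21, the highest background control value on any of the 11 arrays, and no fold is given. On its own array, each Abi_Ctrl value was above the brightest background row (7.70, 7.70 and 7.36 for replicates 1, 2 and 3). Each Abi_Dex value was below it (7.95, 8.03 and 7.69). On the 11 arrays 1 of the 23 rows was above the LNCaPabl-Abi mean of ACAA2, and 0 were above its LNCaPabl-Enza mean. Fitted by limma on the 6 dexamethasone arrays alone, PPARGC1A and ACAA2 had adjusted p-values of 0.00173 and 0.000387. On the 6 DMSO arrays alone, the doubtful array included, neither was called (limma adjusted p = 0.728 for both).

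**Figure D2:**
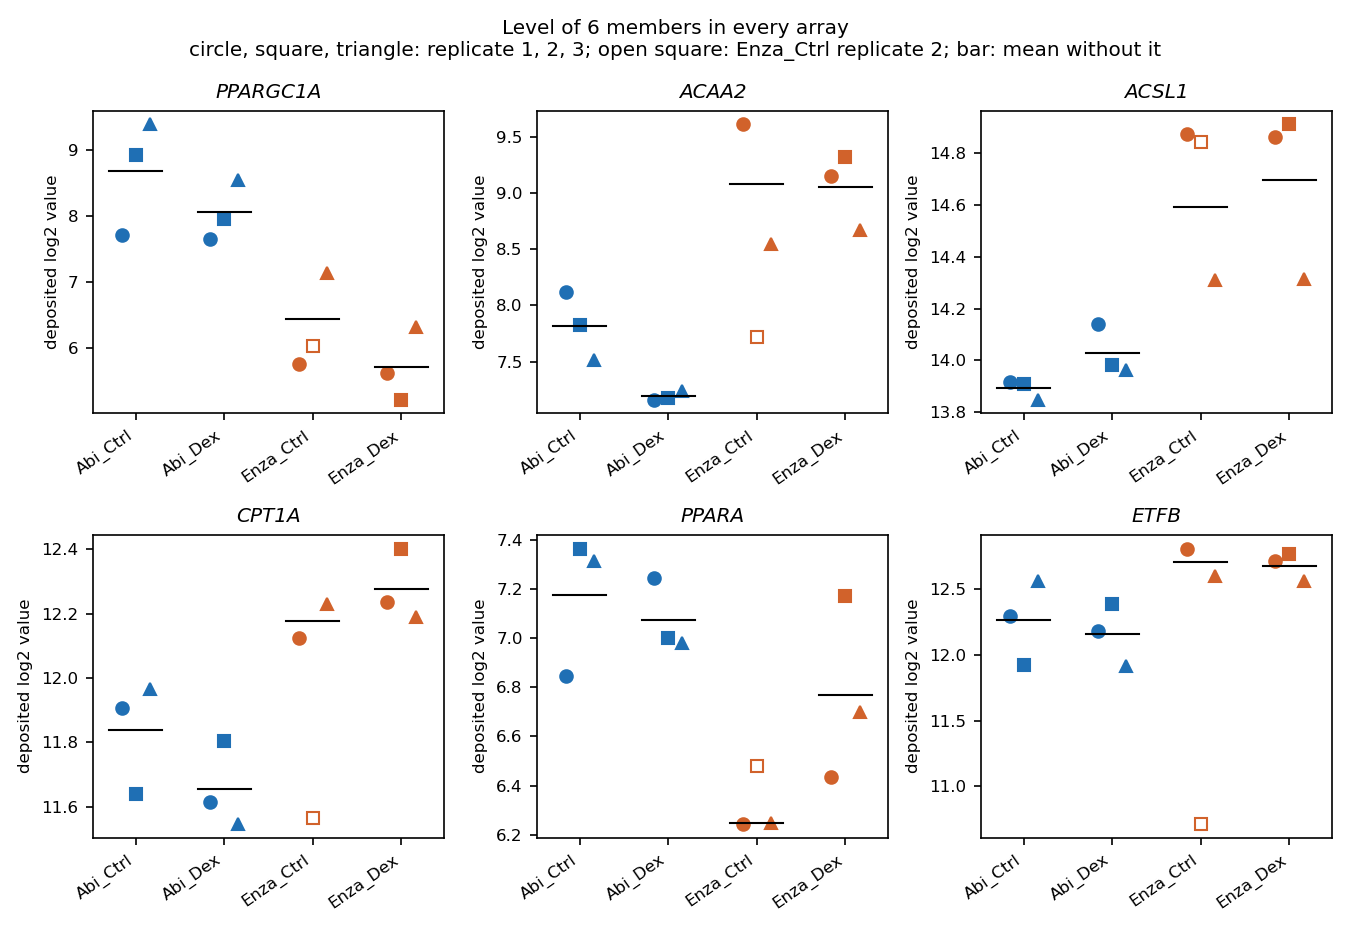
Deposited log2 value (y axis) of PPARGC1A, ACAA2, ACSL1, CPT1A, PPARA and ETFB in each array of the 4 groups (x axis). PPARGC1A lies higher in all 6 LNCaPabl-Abi arrays than in all LNCaPabl-Enza arrays, ETFB of Enza_Ctrl replicate 2, the open square at 10.72, lies below all other arrays, and ACAA2 of that array lies inside the LNCaPabl-Abi range.

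A line difference averaged over both treatments was added after these values were seen. It called 2 members with 12 arrays, PPARGC1A (-2.35 ± 0.35 SE, limma adjusted p = 0.00621) and ACAA2 (1.34 ± 0.28, adjusted p = 0.0493), where 1.28% of all named genes were called. With 11 arrays it called 5 members, 3 higher and 2 lower in LNCaPabl-Enza, where 4.92% of all named genes were called. PPARGC1A then differed by -2.28 ± 0.32 (SE; adjusted p = 0.000415) and ACAA2 by 1.56 ± 0.19 (adjusted p = 0.000155). The added members were ACSL1, CPT1A and PPARA. With 12 arrays the PPARGC1A call was kept whichever array was left out, and the ACAA2 call was lost in 10 of 12 such fits. With 11 arrays both were kept in all 11 fits that left out a further array.

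Of the 4 members of the entry step, 0 were called in either separate line comparison with 12 or 11 arrays, and ACSL1 and CPT1A were called in the average over treatments with 11. ACSL1 activates long-chain fatty acids, and CPT1A, the malonyl-CoA-sensitive gate of the carnitine shuttle, commits them to oxidation. ACSL1 was 13.92, 13.91 and 13.85 in Abi_Ctrl and 14.87, 14.84 and 14.31 in Enza_Ctrl. It was 14.14, 13.98 and 13.96 in Abi_Dex and 14.86, 14.91 and 14.31 in Enza_Dex. Every LNCaPabl-Enza array, the doubtful one included, was above every LNCaPabl-Abi array, and replicate 3 was the lowest of its group under both treatments in LNCaPabl-Enza. With 11 arrays the difference was 0.70 ± 0.23 (SE) with DMSO (limma adjusted p = 0.199) and 0.67 ± 0.20 with dexamethasone (adjusted p = 0.132). Averaged over treatments it was 0.68 ± 0.15, or 1.61-fold, and passed the test with 11 arrays (adjusted p = 0.0159) but not with 12 (adjusted p = 0.0720) or when Enza_Ctrl replicate 1 was also left out (adjusted p = 0.118).

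CPT1A was 11.91, 11.64 and 11.96 in Abi_Ctrl and 11.61, 11.80 and 11.55 in Abi_Dex. It was 12.12, 11.56 and 12.23 in Enza_Ctrl and 12.24, 12.40 and 12.19 in Enza_Dex. The doubtful array, at 11.56, was the only LNCaPabl-Enza array inside the LNCaPabl-Abi range. The difference with 11 arrays was 0.34 ± 0.19 (SE) with DMSO (limma adjusted p = 0.553) and 0.62 ± 0.17 with dexamethasone (adjusted p = 0.0818). Averaged, it was 0.48 ± 0.13 (adjusted p = 0.0419 with 11 arrays and 0.480 with 12), a call kept in 1 of 11 fits without a further array. Of the rest of the shuttle, SLC25A20 was 0.07 ± 0.35 with DMSO and 0.70 ± 0.31 with dexamethasone (adjusted p = 0.403), and CPT2 was 0.01 ± 0.23 (-0.08 ± 0.24 with 12 arrays) and -0.10 ± 0.20. The median difference of the 4 genes with DMSO was 0.21 with 11 arrays and 0.10 with 12, where the median of all named genes was 0.00 and -0.03. With dexamethasone it was 0.64, against -0.01.

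Among the receptors, PPARA, the fatty acid sensor best known from liver, had the lowest levels in Enza_Ctrl. It was 6.84, 7.36 and 7.31 in Abi_Ctrl and 6.25, 6.48 and 6.25 in Enza_Ctrl, with no overlap. With dexamethasone the groups overlapped, at 7.24, 6.998 and 6.98 in Abi_Dex and 6.44, 7.17 and 6.70 in Enza_Dex. The line difference with 11 arrays was -0.93 ± 0.24 (SE) with DMSO (limma adjusted p = 0.0831) and -0.30 ± 0.21 with dexamethasone (adjusted p = 0.678), and the change between these, 0.62 ± 0.32, did not pass the test (adjusted p = 0.999). Averaged, PPARA differed by -0.62 ± 0.16 with 11 arrays (adjusted p = 0.0370), a call lost with 12 arrays (adjusted p = 0.202) and in 9 of 11 fits that left out a further array. All PPARA values of both lines lay inside the range of the background rows.

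PPARD, a receptor of broad tissue range, was 10.87, 10.50 and 10.70 in Abi_Ctrl, 10.83, 10.60 and 10.54 in Abi_Dex, 10.63, 9.92 and 10.55 in Enza_Ctrl and 10.33, 10.38 and 10.21 in Enza_Dex. The doubtful array was its lowest value, and with dexamethasone the lines were apart by -0.35 ± 0.17 (SE; limma adjusted p = 0.463 with 11 arrays). PPARG, the adipocyte receptor, spanned 2.88 to 4.02 on the 11 arrays, with 3.26, 4.02 and 3.31 in Abi_Ctrl, 4.01, 3.92 and 3.39 in Abi_Dex, 2.88, 4.06 and 3.80 in Enza_Ctrl and 3.43, 3.55 and 3.40 in Enza_Dex. These PPARG values lay towards the low end of the background control rows, which began at 2.42 on the same arrays. The coactivator PPARGC1B differed between the lines by 0.56 ± 0.27 with DMSO (adjusted p = 0.475) and 0.18 ± 0.25 with dexamethasone, and ESRRA by 0.44 ± 0.30 and 0.33 ± 0.27, none of them called. With 12 arrays the DMSO difference of ESRRA was -0.12 ± 0.46 and that of PPARG 0.05 ± 0.33, against -0.19 ± 0.29 with 11. PPARGC1A was thus the single regulator of 6 measured that was called in either of the separate line comparisons.

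**Figure D3:**
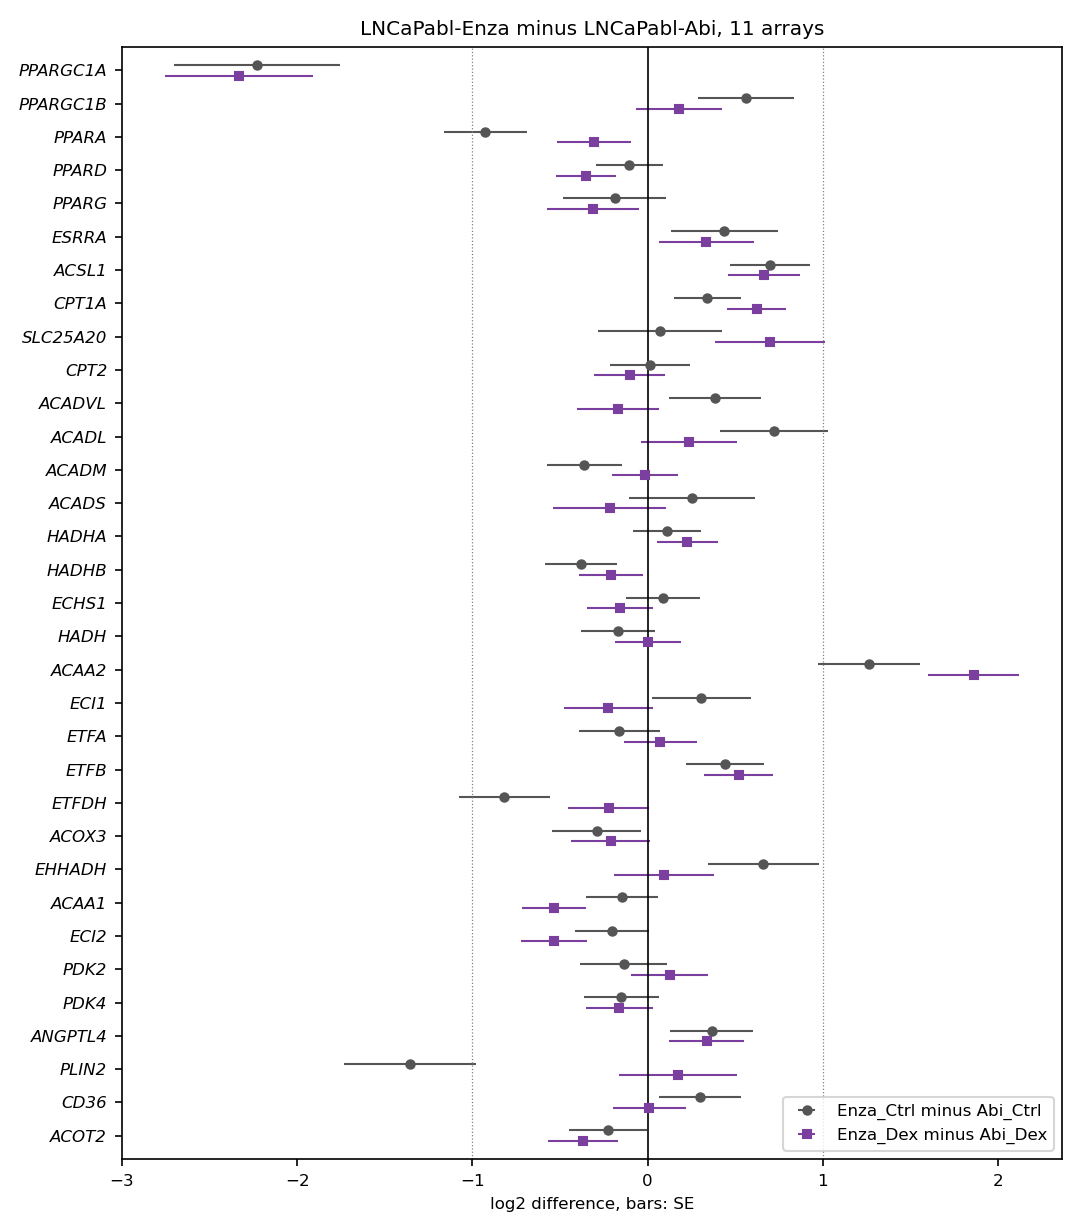
Line difference (LNCaPabl-Enza minus LNCaPabl-Abi, log2, with bars of 1 SE) of the 33 members with DMSO and with dexamethasone, fitted on 11 arrays. PPARGC1A is at -2.23 and -2.33 and ACAA2 at 1.27 and 1.86, and the other members lie between -1.35 (PLIN2, DMSO) and 0.72 (ACADL, DMSO).

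Of the acyl-CoA dehydrogenases, which open each round, 0 of 4 were called in either line comparison with 12 or 11 arrays. The long-chain enzyme ACADL was 0.72 ± 0.31 (SE) with DMSO (limma adjusted p = 0.378) and 0.24 ± 0.28 with dexamethasone, and ACADM, whose deficiency is the common inherited defect of this pathway, was -0.36 ± 0.21 and -0.01 ± 0.19. ACADVL was 0.39 ± 0.26 (-0.03 ± 0.37 with 12 arrays) and -0.17 ± 0.24, and ACADS 0.25 ± 0.36 and -0.22 ± 0.32. With DMSO the groups were apart for ACADL, higher in LNCaPabl-Enza, and for ACADM, lower there, with either set of arrays. The 95% interval of the DMSO difference excluded 0 for ACADL with 11 arrays (0.063 to 1.38) and with 12 (0.037 to 1.42), and for ACADM with 12 (-1.06 to -0.0091) but not with 11 (-0.81 to 0.092). With dexamethasone the 95% interval of each of these 4 genes included 0 with either set. On the 11 arrays the values of ACADL, 3.54 to 5.23, and of ACADS, 4.47 to 5.92, lay inside the range of the background control rows.

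The later steps include the trifunctional protein of HADHA and HADHB, the hydratase ECHS1, the dehydrogenase HADH, the isomerase ECI1 and ACAA2. Of the 6, ACAA2 alone was called in the separate line comparisons, with 11 arrays and not with 12. HADHA was 0.11 ± 0.19 (SE) with DMSO (-0.33 ± 0.33 with 12 arrays) and 0.23 ± 0.17 with dexamethasone, and its partner HADHB -0.38 ± 0.21 and -0.21 ± 0.18. ECHS1 was 0.09 ± 0.21 (-0.02 ± 0.23 with 12) and -0.16 ± 0.19, and HADH -0.17 ± 0.21 and 0.00 ± 0.19. ECI1 was 0.31 ± 0.28 (-0.23 ± 0.43 with 12) and -0.22 ± 0.25. The DMSO differences of HADHA, ECHS1 and ECI1 thus changed sign with 1 array. For each of these 5 genes the 95% interval of the line difference included 0 under both treatments with either set.

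Electrons from the dehydrogenases pass through ETFA and ETFB to ETFDH. ETFB was 12.30, 11.92 and 12.57 in Abi_Ctrl, 12.18, 12.39 and 11.92 in Abi_Dex, 12.81, 10.72 and 12.60 in Enza_Ctrl and 12.71, 12.77 and 12.56 in Enza_Dex. Apart from the doubtful array at 10.72, the LNCaPabl-Enza arrays were above the LNCaPabl-Abi arrays of the same treatment, with mean differences of 0.44 ± 0.22 (SE; limma adjusted p = 0.492) and 0.52 ± 0.20 (adjusted p = 0.284). With 12 arrays the DMSO difference of ETFB was -0.22 ± 0.46, of opposite sign. ETFDH was -0.82 ± 0.26 with DMSO (adjusted p = 0.181), -1.20 ± 0.35 with 12 arrays (adjusted p = 0.297) and -0.22 ± 0.23 with dexamethasone. Its groups were apart with DMSO under either set. ETFA was -0.16 ± 0.23 with DMSO (0.09 ± 0.28 with 12) and 0.07 ± 0.21 with dexamethasone. No gene of this step was called.

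Of the peroxisomal members, 0 of 4 were called. The thiolase ACAA1 and the isomerase ECI2 were lower in LNCaPabl-Enza with dexamethasone, by -0.53 ± 0.18 (SE; limma adjusted p = 0.205) and -0.53 ± 0.19 (adjusted p = 0.222), with no overlap of the groups. With DMSO they were -0.14 ± 0.20 and -0.20 ± 0.21 with 11 arrays, and 0.09 ± 0.25 and -0.67 ± 0.35 with 12. The oxidase ACOX3 was -0.29 ± 0.25 and -0.21 ± 0.23, and the bifunctional enzyme EHHADH 0.66 ± 0.32 (0.30 ± 0.39 with 12) and 0.09 ± 0.28. With 11 arrays 1 of the 4 had a positive difference under each treatment, EHHADH, and with 12 arrays 2 did with DMSO, EHHADH and ACAA1.

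Over all 33 members, the median line difference with DMSO was 0.01 with 11 arrays and -0.08 with 12, and with dexamethasone it was -0.01. With DMSO the groups were apart for 11 members with 11 arrays, 6 higher and 5 lower, against 24% of all named genes, and for 7 with 12 arrays, 3 higher and 4 lower, against 14.2%. They were apart for 9 members with dexamethasone against 20.1%. For 5 members the lines were apart in the same direction under both treatments, PPARGC1A lower and ACSL1, CPT1A, ACAA2 and ETFB higher, against 7.1% of all named genes. With 12 arrays these were PPARGC1A and ACSL1 alone, against 4.56%. The line difference had the same sign under both treatments for 24 of 33 members and for 62.4% of all named genes with 11 arrays, and for 23 members and 55.2% with 12. The 2 comparisons share no array.

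Replicate 3 of LNCaPabl-Enza lay nearest to LNCaPabl-Abi for PPARGC1A, ACAA2 and ACSL1 under both treatments, the doubtful array aside. The same held for many other genes. Of the 403 genes called between the lines with dexamethasone on 11 arrays, Enza_Dex replicate 3 was the array nearest to LNCaPabl-Abi for 200 (49.6%), replicate 2 for 112 and replicate 1 for 91. The part of this in the line differences was not tested.

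Dexamethasone was then compared with DMSO within each line. No member was called. In LNCaPabl-Abi 0 of 33 members passed the test with either array set, against 0.0283% of all named genes with 12 arrays and 0.141% with 11. In LNCaPabl-Enza 0 members and 0% of all named genes were called with either. At an unadjusted p under 0.05, limma counted 0 members in LNCaPabl-Abi with 12 arrays and 5 with 11, and 1 and 2 in LNCaPabl-Enza, where 1.36%, 7.09%, 3.96% and 3% of all named genes reached it, in that order. For 29 of 33 members in each line the whole 95% interval of the response, with 11 arrays, lay within 1 log2 unit of 0 (a 2-fold change), as for 92.1% and 91.8% of all named genes. With 12 arrays this held for 19 and 17 members, and for 52.1% and 40.8% of all named genes. These comparisons share the DMSO arrays with the first line comparison.

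The known glucocorticoid-inducible members of other tissues were at low values here. PDK4, the kinase that switches off pyruvate dehydrogenase, was 3.29, 2.92 and 2.99 in Abi_Ctrl and 3.48, 3.43 and 3.52 in Abi_Dex. It was 2.69, 4.77 and 3.14 in Enza_Ctrl and 3.55, 3.07 and 3.34 in Enza_Dex. The LNCaPabl-Abi groups did not overlap, while 4.77 on the doubtful array exceeded every other value. The response was 0.41 ± 0.19 (SE) in LNCaPabl-Abi (limma adjusted p = 0.699) and 0.40 ± 0.21 in LNCaPabl-Enza with 11 arrays, but -0.22 ± 0.43 in LNCaPabl-Enza with 12. The values of PDK4 on the 11 arrays, 2.69 to 3.55, lay near the low end of the background control rows.

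ANGPTL4 was 3.49, 3.26 and 2.83 in Abi_Ctrl, 2.68, 2.91 and 3.11 in Abi_Dex, 3.62, 4.10 and 3.50 in Enza_Ctrl and 3.26, 3.52 and 2.93 in Enza_Dex. The DMSO and dexamethasone groups overlapped in both lines, 4.10 was the doubtful array, and the values again lay near the low end of the background rows. The responses were -0.30 ± 0.21 (SE) in LNCaPabl-Abi and -0.32 ± 0.24 in LNCaPabl-Enza (-0.51 ± 0.27 with 12 arrays). CD36, a fatty acid transporter and PPAR target, was 5.21, 4.95 and 4.81 in Abi_Ctrl, 4.95, 4.93 and 4.59 in Abi_Dex, 4.99, 7.52 and 5.59 in Enza_Ctrl and 4.74, 4.66 and 5.10 in Enza_Dex. The doubtful array held the 7.52, and every other value lay between 4.59 and 5.59. The response of CD36 in LNCaPabl-Enza was -1.20 ± 0.50 with 12 arrays and -0.45 ± 0.23 with 11 (95% interval -0.95 to 0.050).

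PLIN2, which coats lipid droplets and follows PPAR activity and lipid load, had the largest response of the members in LNCaPabl-Enza with 11 arrays. With 12 arrays CD36, at -1.20, and ESRRA, at 0.86 ± 0.46 (SE; 0.29 ± 0.30 with 11), were farther from 0 than PLIN2. It was 5.32, 6.34 and 3.87 in Enza_Ctrl and 6.38, 6.07 and 5.55 in Enza_Dex. In LNCaPabl-Abi it was 6.17, 6.26 and 5.41 with DMSO and 5.99, 6.004 and 5.49 with dexamethasone. Replicate 3 was the lowest of every group, and without the doubtful array, at 6.34, all Enza_Dex arrays were above the remaining Enza_Ctrl arrays. The response in LNCaPabl-Enza was 1.40 ± 0.38 (SE) with 11 arrays (limma unadjusted p = 0.00206, adjusted p = 1.00) and 0.82 ± 0.52 with 12, and in LNCaPabl-Abi -0.12 ± 0.34. The difference between those responses, 1.53 ± 0.51, did not pass the test (adjusted p = 0.999). The same Enza_Ctrl arrays gave the line difference with DMSO of -1.35 ± 0.38 (limma adjusted p = 0.120). When a further array was left out of the 11, the PLIN2 response in LNCaPabl-Enza ranged from 0.68 to 2.13. The PLIN2 values on the 11 arrays, 3.87 to 6.38, lay inside the range of the background control rows, 2.42 to 8.21.

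**Figure D4:**
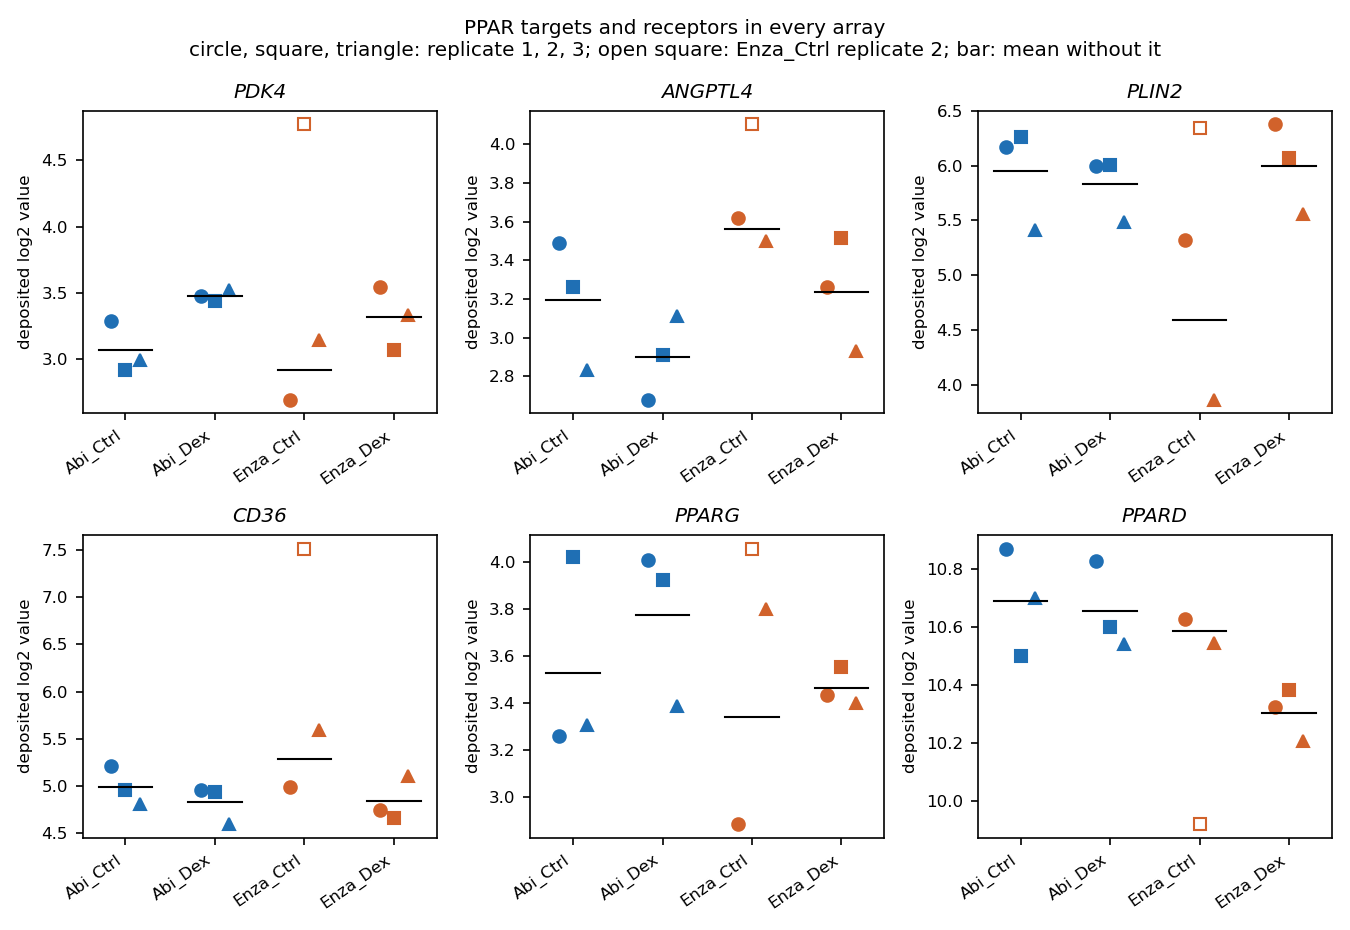
Deposited log2 value (y axis) of PPAR target genes and receptors in each array of the 4 groups (x axis). CD36 and PDK4 reach 7.52 and 4.77 on Enza_Ctrl replicate 2, the open squares, above all 11 other arrays.

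Among the other members, ACAA2 in LNCaPabl-Abi was lower on every dexamethasone array than on any DMSO array, with a difference of -0.63 ± 0.26 (SE; limma adjusted p = 0.678 with 11 arrays and 1.00 with 12). The isomerases ECI1 and ECI2 were 0.59 ± 0.25 and 0.43 ± 0.19 in the same line, and ACAA1 was 0.42 ± 0.18, each with no overlap of the groups and adjusted p-values of 0.688, 0.699 and 0.699. With ACSL1 and PDK4 this made 5 members higher and 1 lower with groups apart in LNCaPabl-Abi, against 12.3% of all named genes. All 4 peroxisomal members had a positive response there, with a median of 0.33 against 0.00 for all named genes, of which 50.4% had a positive response, and none was called. In LNCaPabl-Enza, PLIN2, PPARA (0.52 ± 0.24) and HADHA (0.09 ± 0.19) were higher and PPARD (-0.28 ± 0.19) was lower with groups apart on 11 arrays, against 15.9% of all named genes. With 12 arrays HADHA alone was apart (0.54 ± 0.33), against 8.74%, and PPARA was 0.44 ± 0.25 and PPARD -0.06 ± 0.24. PPARGC1A had responses of -0.62 ± 0.42 and -0.73 ± 0.47 with overlapping groups, and 95% intervals of -1.53 to 0.28 and -1.74 to 0.28. PDK2 and ACOT2, a kinase relative of PDK4 and a mitochondrial thioesterase, were 0.13 ± 0.22 and 0.15 ± 0.20 in LNCaPabl-Abi and 0.39 ± 0.25 and 0.00 ± 0.22 in LNCaPabl-Enza, where 12 arrays gave 0.53 ± 0.27 and 0.59 ± 0.42.

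**Figure D5:**
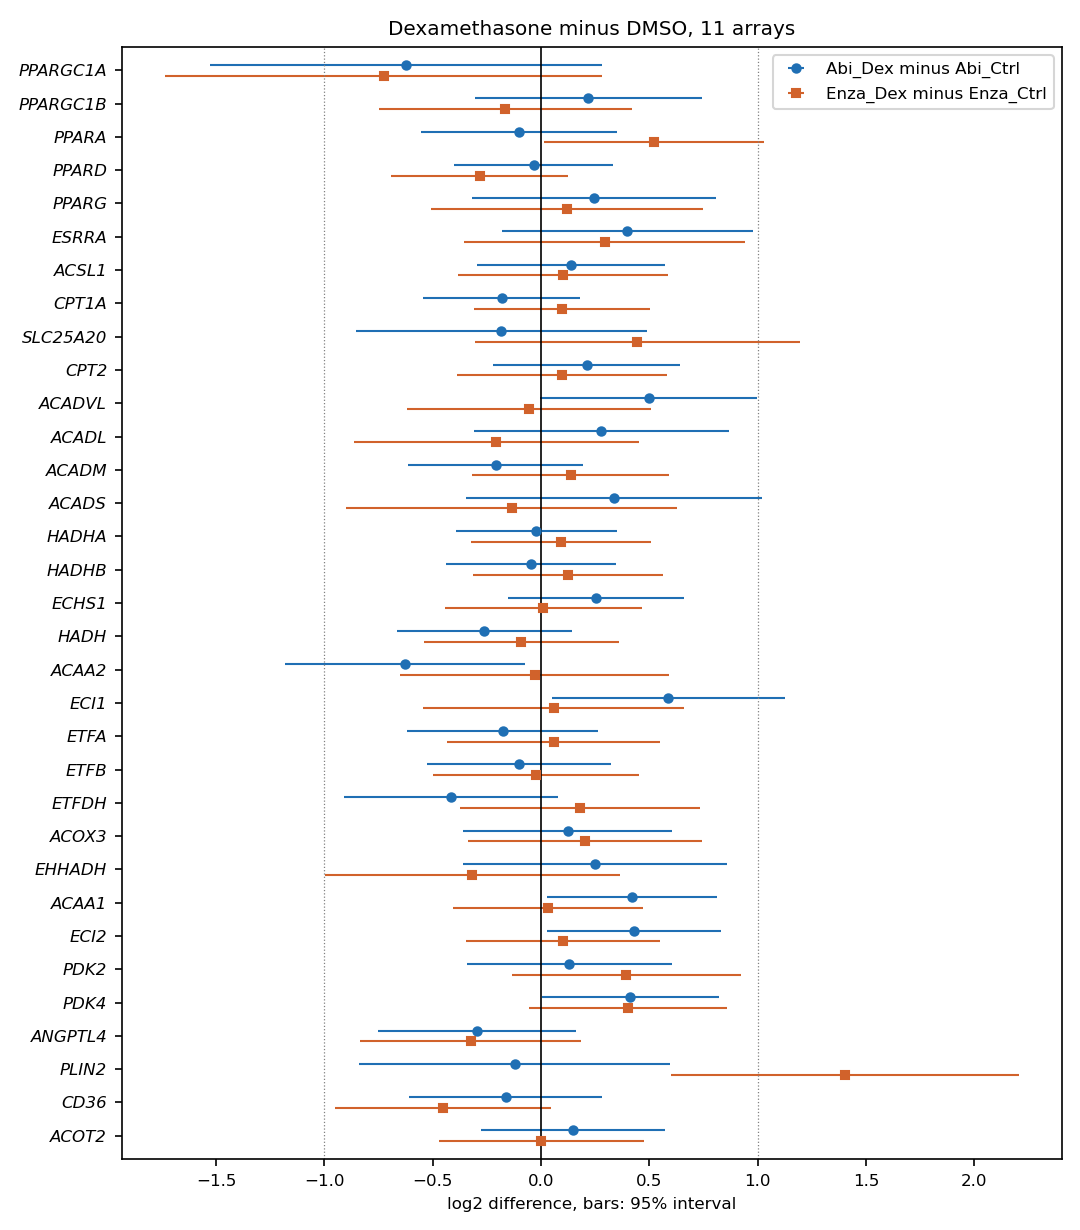
Response to dexamethasone (log2 difference from DMSO, with 95% confidence intervals) of the 33 members in each line, fitted on 11 arrays. The intervals of 29 members in each line lie within 1 log2 unit of 0, and PLIN2 in LNCaPabl-Enza is farthest out at 1.40.

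The difference between the lines' responses was tested for every member, and 0 were called with 12 or with 11 arrays, as for 0% of all named genes. At an unadjusted p under 0.05 limma counted 0 members with 12 arrays (1.5% of all named genes) and 1 with 11 (3.2%). A response averaged over both lines, added after the values were seen, also called 0 members, against 0.0283% of all named genes with 12 arrays and 0.153% with 11, with 0 and 2 members at an unadjusted p under 0.05 (2.67% and 5.59% of all named genes). The whole 95% interval of the difference between responses lay within 1 log2 unit of 0 for 21 of 33 members with 11 arrays, as for 62.8% of all named genes, and for 8 members with 12 arrays, as for 17%.

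The wider pathway was read from 5 further lists, also chosen with earlier results of these data known. Of 19 other fatty acid oxidation genes measured (23 listed), 1 was called between the lines, ACSL4, which prefers arachidonic acid. It was higher in LNCaPabl-Enza by 1.53 ± 0.29 (SE) with dexamethasone on 11 arrays (limma adjusted p = 0.0104) and by 0.92 ± 0.33 with DMSO (adjusted p = 0.258). With 12 arrays the dexamethasone difference was not called (adjusted p = 0.343). With 11 arrays that call was kept in 10 of 11 fits without a further array. Averaged over treatments, ACSL4 was called with 12 arrays (1.43 ± 0.30, limma adjusted p = 0.0424) and with 11 (1.22 ± 0.22, adjusted p = 0.00361). Of all named genes on 11 arrays, 1.29% were called with DMSO, 2.28% with dexamethasone and 4.92% in the average. The LNCaPabl-Abi values of ACSL4, 6.17 to 7.72, lay inside the background range of the 11 arrays. There 1 of the 23 background rows was above their mean, and 0 were above the LNCaPabl-Enza mean.

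Of 17 partners of PPARs and PGC-1 measured (20 listed), 1 was called, PRKAA2, a catalytic subunit of the AMP-activated kinase that phosphorylates PGC-1 alpha. Its level was 7.45 ± 0.56 in Abi_Ctrl, 7.36 ± 0.33 in Abi_Dex, 5.65 ± 0.23 in Enza_Ctrl and 5.82 ± 0.25 in Enza_Dex (SD, n = 3). The lines did not overlap under either treatment. With DMSO the difference was -1.80 ± 0.31 (SE) with 12 arrays (limma adjusted p = 0.0414) and -1.67 ± 0.29 with 11 (adjusted p = 0.00782). With dexamethasone it was -1.54 ± 0.26 with 11 arrays (adjusted p = 0.00400) and was not called with 12 (adjusted p = 0.0913). The DMSO call with 12 arrays was lost in 11 of 12 fits that left out an array, all but that without Enza_Ctrl replicate 2, and with 11 arrays the calls were kept in 9 of 11 fits without a further array for DMSO and in 11 of 11 for dexamethasone. PRKAA2 and PPARGC1A were thus lower in the same line. On 11 arrays 1.29% of all named genes were called with DMSO and 2.28% with dexamethasone. The LNCaPabl-Enza values of PRKAA2, like those of PPARGC1A, lay inside the background range, with 10 of the 23 background rows above their mean on the 11 arrays.

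Of 11 other peroxisomal genes (14 listed), 23 other PPAR targets and lipid droplet genes (24 listed) and 16 genes of the respiratory chain and citrate cycle (19 listed), 0 were called between the lines with DMSO or with dexamethasone, with 12 or 11 arrays. At an unadjusted p under 0.05 limma counted 3, 4 and 0 of them with DMSO and 4, 1 and 0 with dexamethasone on 11 arrays. Of all named genes, 11.1% reached this with DMSO and 11.5% with dexamethasone. The line difference averaged over treatments called 2 peroxisomal genes, both lower in LNCaPabl-Enza, with 11 arrays, where 4.92% of all named genes were called. They were PHYH, which starts the breakdown of phytanic acid (-0.63 ± 0.13 SE, limma adjusted p = 0.0111), and PEX11A, a peroxisome division gene (-0.49 ± 0.12, adjusted p = 0.0339). For all 16 genes of the respiratory chain and citrate cycle, many of them PGC-1 alpha targets in muscle, the 95% interval of the line difference lay within 1 log2 unit of 0 under both treatments with 11 arrays, where this held for 83.3% of all named genes with DMSO and 89% with dexamethasone. With 12 arrays it held for 13 of 16 with DMSO (37.5% of all named genes) and 15 of 16 with dexamethasone (50.7%). The medians were 0.03 with DMSO (-0.14 with 12 arrays) and -0.03 with dexamethasone. No gene of the 5 lists was called for dexamethasone in either line. In LNCaPabl-Enza, 17 of the 19 other fatty acid oxidation genes had a positive response, with a median of 0.12 on 11 arrays, against a median of 0.00 and 51% positive among all named genes. With 12 arrays it was 14 of 19, with a median of 0.29, against 0.06 and 54%. In LNCaPabl-Abi 11 of these 19 genes had a positive response, with a median of 0.08, against 0.00 and 50.4%. Of the 33 members, 21 had a positive response in LNCaPabl-Enza with either set, with medians of 0.06 on 11 arrays and 0.18 on 12. Genes of a list were read on the same arrays and are not independent.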

How the data were processed

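Total RNA of 12 samples was hybridised to single-colour Affymetrix arrays with biotin label. The values are log2, with 1 for each transcript cluster on an array, as deposited by the authors. Affymetrix Expression Console, RMA and limma are listed, with no version, in the submitters' processing notes. The deposited values span 1.66 to 18.6, and a step beyond RMA is not given in the sources used here, so folds are on the deposited scale. Of 24351 rows, 17709 had 1 symbol in the platform annotation and 6642 had none. The brightest row was kept per symbol, leaving 17687 genes. Array numbers limit the precision.

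Groups and replicate numbers came from the titles. Nothing in the labels says that replicates were separate cultures. The p-values therefore reflect only how far these arrays differ, in part perhaps for technical reasons. The test was limma 3.58.1 in R 4.3.3 (lmFit, eBayes, 4 group means, no filter or block), with Benjamini-Hochberg adjustment over all genes, called at an adjusted p under 0.05. Folds are 2 to the power of the log2 difference, intervals are at the 95% level, and the fit was tested on simulated data. Same-numbered arrays of different groups correlated between -0.04 and 0.30 in their deviations. Differently numbered ones correlated between -0.22 and 0.18 on 11 arrays. The numbers were not taken as pairs in the main test. Alternatives were a replicate block, a mean over rows, quantile normalization, median centring, array weights, a dim-gene filter (lowest 20%), trended and robust variance, 2 groups at a time and leaving out arrays.

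Values in every array are given for members called in a comparison, for members whose lines did not overlap under both treatments, and for PPARGC1A, PPARA, PPARD, PPARG, CPT1A, PDK4, ANGPTL4, PLIN2, ACSL1 and CD36 whatever their result. From the 5 further lists, called genes are named, up to 4 in each direction. The members and lists were chosen with earlier results of these data known.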

Additional observations from a re-analysis of the deposited data

How the results depend on the processing

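The line comparisons depended on Enza_Ctrl replicate 2 and on how the spread was weighed. Members called with DMSO, 0 with 12 arrays, were 1 with the replicate block, 3 with the block on 11 arrays, 2 with array weights, and 0 to 3 across fits that left out arrays, with PPARGC1A called also without Enza_Ctrl replicate 3. Members called with dexamethasone, 0 with 12 arrays, were 1 with the block, 2 with the block on 11 arrays, 1 after quantile normalization anew, 4 with array weights, 2 with the 2 groups alone, and 0 to 3 across fits that left out arrays, with ACAA2 called also without Enza_Ctrl replicate 1. Averaged over treatments, 2 members became 1 with the block, 4 with the block on 11 arrays, 5 with array weights, and 1 to 5 across fits that left out arrays. The share of all named genes called moved between fits too. From 12 to 11 arrays it rose from 0.266% to 1.29% with DMSO and from 0.277% to 2.28% with dexamethasone. Shares under the other fits are not given here, so these counts are not read as results about the members. The numbers were not taken as pairs, since 8 of 15 same-numbered pairs on 11 arrays, and not all of them, correlated above 0.1. As a hint from the data and not the design, 9 of 11 arrays, and 10 of 12 with all arrays, correlated best with an array of their own number. With 11 arrays the 2 remaining Enza_Ctrl arrays deviate from their mean by equal and opposite amounts. The counts on 11 arrays are therefore in part fixed in advance.

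PPARGC1A kept its direction in every fit run. The response of PDK4 in LNCaPabl-Enza, -0.22 with 12 arrays, was 0.47 with the block on 11 arrays, 0.10 after quantile normalization anew, 0.43 with array weights, and -0.64 to 0.62 across fits that left out arrays. The response of PLIN2 in LNCaPabl-Abi ranged from -0.39 to 0.049 across such fits, without Abi_Ctrl replicate 2 and without Abi_Dex replicate 3 turning above 0. The DMSO line difference of ETFB, -0.22 with 12 arrays, was 0.44 with the block on 11 arrays, 0.13 after quantile normalization anew, 0.36 with array weights, and -0.61 to 0.59 across fits that left out arrays. That of CD36 ranged from -0.0040 to 1.56 across such fits. In each fit 0 members were called for dexamethasone or for the difference between responses. The cause of these shifts was not tested. Leaving out a further array besides Enza_Ctrl replicate 2 was added after seeing the values. Values near the low end of the background rows, as for PDK4, ANGPTL4 and PPARG, have little room to show a decrease. The LNCaPabl-Enza values of PPARGC1A and PRKAA2 lay inside the background range but not at its low end. How far this limits a decrease was not tested.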
